A study of Mus musculus with 4 samples.

Results

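The mitochondrial genome transcripts described here are the 37 annotated genes whose symbols begin with mt-, out of 55450 genes counted. They comprise 13 messenger RNAs (the mt-Nd, mt-Co, mt-Atp and mt-Cytb genes), 2 ribosomal RNAs (mt-Rnr1 and mt-Rnr2) and 22 transfer RNAs (the mt-T genes), and the choice used names only, not measured values. They were counted by droplet single-cell RNA sequencing (10x Genomics) of subcutaneous MC38 tumours, MC38 being a mouse colon carcinoma line. KO tumours (n = 2) grew from MC38 cells labelled as knockout for Hnrnpa2b1, the gene of an hnRNP protein that binds RNA, and WT tumours (n = 2) grew from MC38 cells without that knockout. All hosts were C57BL/6J mice 8 weeks old, injected with 2000000 cells under the skin of the flank, and the labels name no further agent in either group. The sources used here give neither the edited position in Hnrnpa2b1 nor how many clones make up the KO line. Only the injected cells are described as edited, so host cells of both groups share 1 genotype as far as the labels say.

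The mitochondrial genome is copied into long RNAs from both of its strands, which are cut apart largely at the transfer RNAs that lie between the other genes. Most of the messenger RNAs receive a poly(A) tail. The messenger RNAs encode subunits of respiratory complexes I, III and IV and of the ATP synthase. The ribosomal and transfer RNAs serve the translation of those messenger RNAs inside the organelle. The capture of RNA by oligo(dT), usual in droplet methods, favours polyadenylated RNA, so unique molecular identifiers (UMIs, 1 per captured molecule) need not report transfer and ribosomal RNA in proportion to their amounts in the cell.

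Libraries held 9547 and 9578 barcodes with 114136609 and 132490304 UMIs in KO tumours 1 and 2, and 12741 and 11628 barcodes with 153162562 and 123655955 UMIs in WT tumours 1 and 2. After filtering, 8739, 8806, 11422 and 10340 cells remained in KO 1, KO 2, WT 1 and WT 2, and 197 barcodes occurred in 2 or more libraries. Cells were grouped without using any mt- gene. Clusters nearly free of both Xist, a noncoding RNA of the inactive X chromosome, and Ptprc, the leukocyte marker CD45, were joined as Xist-low cells, numbering 1263 and 2468 in KO tumours and 7977 and 6454 in WT tumours. Of 12 epithelial markers only Msln was common in them (73.6% and 72.4% of KO cells, 39.1% and 33.6% of WT cells), and each other marker was found in at most 2.45% of cells of any tumour, so these cells are called by their rule and not by a cell type name. Hnrnpa2b1 stood at 358 and 324 CPM (UMI counts scaled by library size and TMM factor) in KO Xist-low cells, against 557 and 546 CPM in WT Xist-low cells. The groups did not overlap, and the gene fell in the test across all genes (log2 fold change -0.69 ± 0.13 SE, edgeR quasi-likelihood test, Benjamini-Hochberg adjusted p = 0.0311). The call was lost without KO tumour 1 (adjusted p = 0.078), without KO tumour 2 (adjusted p = 0.171) and in cells of 10000 to 30000 UMIs (adjusted p = 0.053).

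Several messenger RNAs have near-identical copies in the nuclear genome, which bears on how their UMIs can be read. In the GENCODE vM21 annotation of GRCm38, 7 unprocessed pseudogenes on the minus strand of chromosome 1 (chr1:24611535-24616197) copy a run of neighbouring genes. Gm29216 holds the last 483 bases of mt-Co1, Gm28661 copies mt-Co2, Gm10925 mt-Atp6, Gm28437 mt-Co3, Gm28438 mt-Nd3 and Gm10222 mt-Nd4l, and Gm28439 holds the first 876 bases of mt-Nd4. Of these, 5 alignments were identical in every base. The mt-Co1 alignment held 1 difference (A1066T, numbered from base 1 of mt-Co1, the mitochondrial base first), and the mt-Nd3 alignment held 1 difference (T3C, numbered from base 1 of mt-Nd3). The first 60 bases of mt-Nd3 (chrM:9459-9518, plus strand) and of Gm28438 (chr1:24613060-24613119, minus strand) are shown 5′ to 3′ because they hold the 1 base that differs over the 345 aligned; the capital marks the differing base. The stretch of mt-Nd4 where its copy ends (chrM:11013-11072, plus strand) is shown with the bases beyond the copy in capitals.
mt-Nd3: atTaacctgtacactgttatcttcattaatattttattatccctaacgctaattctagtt
Gm28438: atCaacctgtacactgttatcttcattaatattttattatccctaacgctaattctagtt
mt-Nd4: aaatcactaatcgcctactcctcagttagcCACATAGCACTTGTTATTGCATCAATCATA

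Messenger RNAs covered nearly whole by a copy had low levels. Levels between genes are given per length, as UMIs per 10000 UMIs per kilobase in Xist-low cells. mt-Cytb, which encodes the cytochrome b subunit of complex III, had 26.1 and 28.1 in KO tumours and 15.9 and 23.4 in WT tumours. mt-Nd1, a complex I subunit, had 26.96 and 25.8 in KO tumours and 14.7 and 22.8 in WT tumours. Neither gene has a 90-base window identical to a nuclear transcript. mt-Co2, a catalytic subunit of complex IV with 99.5% of its windows identical to a copy, had 0.151 and 0.151 in KO tumours and 0.118 and 0.145 in WT tumours. mt-Co3, another core subunit of complex IV (99.9% of windows identical), had 0.233 and 0.190 in KO tumours and 0.147 and 0.211 in WT tumours. mt-Atp6, a membrane subunit of the ATP synthase (99.5%), had 0.650 and 0.650 in KO tumours and 0.492 and 0.585 in WT tumours. The 5 genes with over 97% identical windows (mt-Co2, mt-Co3, mt-Atp6, mt-Nd3 and mt-Nd4l) ranked 8 to 13 of 13 in every tumour. mt-Nd6, the one messenger RNA read from the minus strand, lay among them at rank 8 or 9 without a copy. mt-Nd4 kept a high level (11.7 and 11.1 in KO tumours, 4.94 and 9.60 in WT tumours), and the last 300 bases of this gene hold no window identical to a copy. In mt-Co1, by contrast, 100% of the windows in the last 300 bases are identical to a copy. Yet mt-Co1 had 4.68 and 5.44 in KO tumours and 5.68 and 6.999 in WT tumours, at rank 4 to 6 of 13. A copied end thus did not go with a low level in every gene. A read that fits more than 1 place in the genome is commonly left out of gene counts, so the levels of the 5 copied genes are uncertain, and how such reads were treated in these files was not tested.

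**Figure D1:**
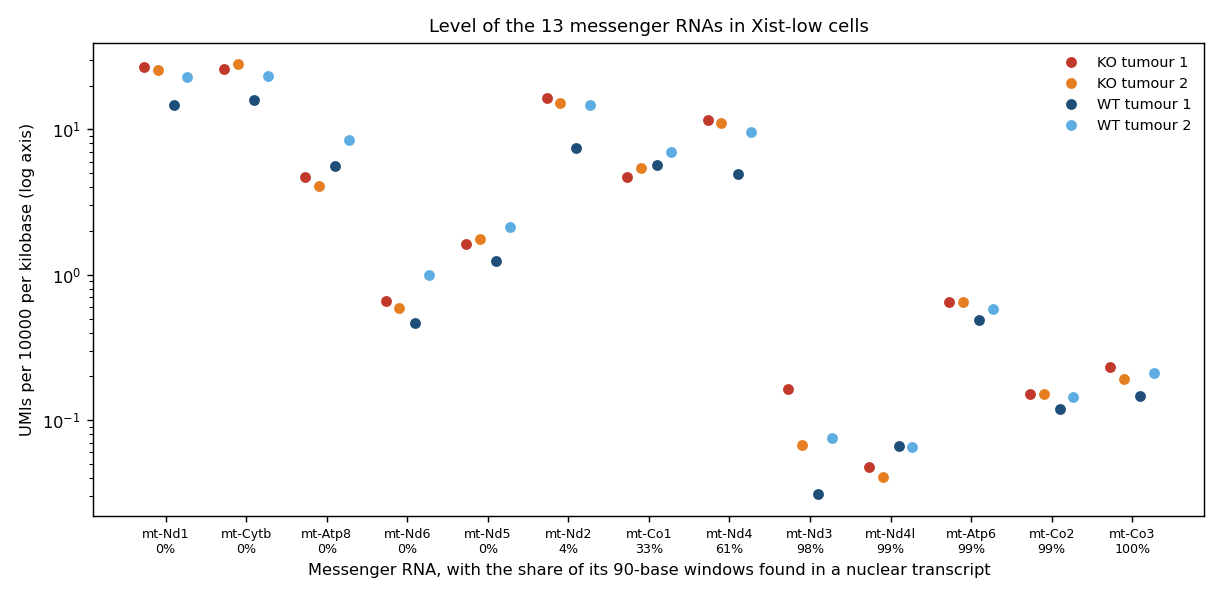
UMIs per 10000 UMIs per kilobase (log axis) of the 13 messenger RNAs in Xist-low cells, 1 point per tumour, with the share of each gene's 90-base windows found in a nuclear transcript under its name. The 5 genes with over 97% identical windows lie at or under 0.650, and mt-Nd1 and mt-Cytb lie at 14.7 or more.

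mt-Nd3, a small complex I subunit, separated the cell classes through its pair with Gm28438. In Xist-low cells, UMIs were assigned to mt-Nd3 in 295 of 11610 and 195 of 12441 cases in KO tumours, against 119 of 7288 and 244 of 14236 in WT tumours, and all others were assigned to Gm28438. That is 2.54% (95% Wilson interval 2.27 to 2.84) and 1.57% (1.36 to 1.80) in KO tumours, and 1.63% (1.37 to 1.95) and 1.71% (1.51 to 1.94) in WT tumours; such intervals cover counting error only. In mononuclear phagocytes the share of mt-Nd3 was 90.7% and 90.8% in KO tumours and 89.2% and 67.3% in WT tumours. Both genotypes thus gave shares of a few percent in Xist-low cells and of most UMIs in phagocytes. T and NK cells had 80.3% and 80.7% in KO tumours and 81.4% and 67.4% in WT tumours, fibroblasts 93.0% and 88.9% against 65.2% and 60%, and endothelial cells 90.7% and 92.3% against 83.3% and 86.2%. Across these classes and dendritic cells, the lowest of 20 values was 60%, and the highest of the 4 Xist-low values was 2.54%. Within the single clusters of Xist-low cells the share was 0% to 6.38% over 24 values of 6 clusters in 4 tumours, and within the clusters of the 5 other classes it was 32.1% to 94.1% over 52 values.

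The sum of both symbols differed much less between the classes. It was 2.23 and 1.49 UMIs per 10000 in KO Xist-low cells and 0.660 and 1.53 in WT Xist-low cells, against 1.74 and 1.28 in KO phagocytes and 0.703 and 1.46 in WT phagocytes. Neutrophils lay between the classes, with mt-Nd3 shares of 26.96% and 18.2% in KO tumours and 50% and 13.1% in WT tumours, the 50% resting on 1 of 2 UMIs (interval 9.45 to 90.5). WT tumour 2 had the highest Gm28438 level of the 4 tumours in phagocytes (0.479 UMIs per 10000) and in T and NK cells (0.595). Which base the reads carried at position 3 of mt-Nd3 cannot be read from counts and was not tested, and neither was the part of free RNA in the droplets. The other 6 copies stayed at or under 0.027 UMIs per 10000 in each of the 5 classes tested between genotypes, other than for Gm28661 in neutrophils of WT tumour 2 (0.039).

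**Figure D2:**
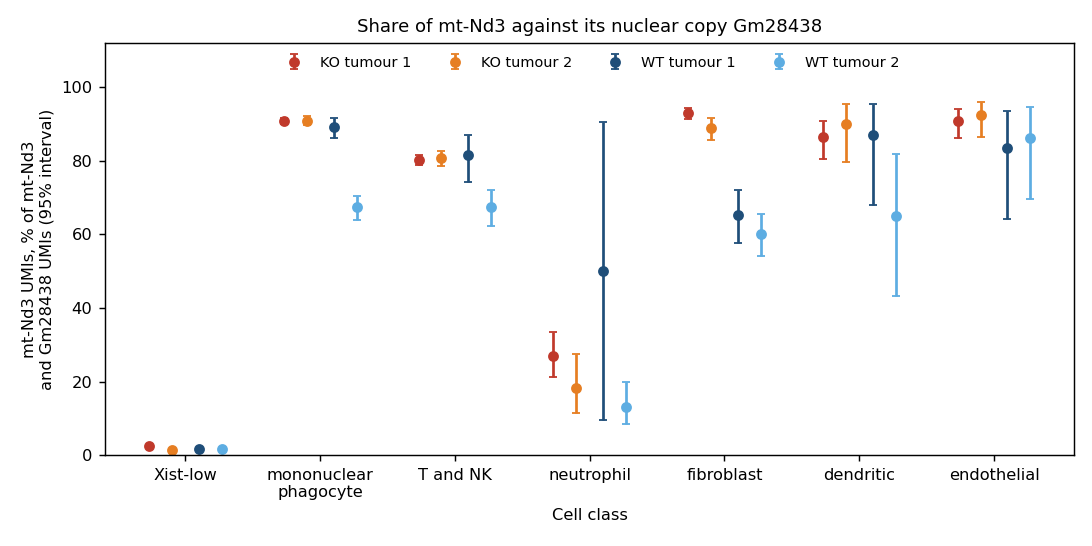
Share of UMIs assigned to mt-Nd3, out of those assigned to mt-Nd3 or Gm28438, by cell class and tumour, with 95% Wilson intervals for counting error. Xist-low cells lie between 1.57% and 2.54% in all 4 tumours, and phagocytes between 67.3% and 90.8%.

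The messenger RNA share of UMIs lay between 0.380% and 1.35% over 7 classes and 4 tumours, and it was lower in WT tumour 1 than in the other 3 tumours. In Xist-low cells the 13 messenger RNAs together took 1.01% and 1.01% of UMIs in KO tumours, against 0.599% and 0.948% in WT tumours. In mononuclear phagocytes they took 0.788% and 0.797% in KO tumours, against 0.580% and 0.861% in WT tumours. In T and NK cells they took 1.08% and 1.05% in KO tumours, against 0.621% and 1.02% in WT tumours. WT tumour 1 was the lowest of the 4 tumours in all 7 classes shown in the plot of shares, and WT tumour 2 lay near or above the KO tumours. The log2 ratio of KO to WT means was 0.39 in Xist-low cells, 0.14 in phagocytes, 0.38 in T and NK cells, -0.02 in neutrophils and 0.31 in fibroblasts. Without WT tumour 1 these ratios became 0.09, -0.12, 0.06, -0.47 and 0.00, and without WT tumour 2 they became 0.76, 0.45, 0.78, 0.63 and 0.71. No test was made of these sums, and 2 tumours against 2 cannot give less than p = 0.33 in an exact permutation test.

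In the reported clustering the first 3 classes by messenger RNA share were the same in all 4 tumours. Endothelial cells had the highest messenger RNA share in all 4 tumours (1.17% and 1.08% in KO, 0.741% and 1.35% in WT), followed by T and NK cells and then Xist-low cells. Dendritic cells (0.680% and 0.661% in KO, 0.440% and 0.736% in WT) and neutrophils (0.510% and 0.666% in KO, 0.380% and 0.815% in WT) took the last places. Endothelial cells numbered 53 and 79 in KO tumours and 52 and 20 in WT tumours, so their values rest on few cells. At Leiden resolution 2.0 phagocytes took the place of T and NK cells among the first 3 in WT tumour 1. Within a depth window the order was not kept in every tumour. Over cells of 2000 to 10000 UMIs the first 3 places were kept in WT tumour 1. Xist-low cells came first in KO tumours 1 and 2 and in WT tumour 2, ahead of T and NK cells. Endothelial cells numbered under 20 in that range in KO tumour 1 and WT tumour 2 and were not ranked there. Few KO Xist-low cells were that shallow: 32 and 26 had 2000 to 5000 UMIs, and 31 and 30 had 5000 to 10000. WT tumours had 299 and 532, and 2355 and 1765. In KO tumour 1 these ranges had messenger RNA shares of 4.13% and 2.65%, against 1.01% over the class. As a share of messenger RNA UMIs, the 7 mt-Nd genes of complex I took 61.7% and 58.5% in KO Xist-low cells and 52.1% and 57.8% in WT Xist-low cells.

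Ribosomal RNA set WT tumour 2 apart. mt-Rnr1 and mt-Rnr2, the small and large ribosomal RNAs of the organelle, together took 0.425% and 0.360% of UMIs in KO Xist-low cells, against 0.427% and 1.35% in WT Xist-low cells. In phagocytes they took 0.634% and 0.545% in KO tumours, against 0.488% and 2.00% in WT tumours. In T and NK cells they took 1.48% and 1.55% in KO tumours, against 0.729% and 3.09% in WT tumours. WT tumour 2 was the highest in each of the 7 classes plotted. The 2 WT tumours differed 3.17-fold in Xist-low cells and 4.24-fold in T and NK cells, so a genotype difference in ribosomal RNA cannot be told apart from the spread between WT tumours. Over all cells, the class with the lowest ribosomal RNA share was Xist-low for both KO libraries and fibroblast for both WT libraries. Over cells of 2000 to 10000 UMIs it was lowest in phagocytes in both KO tumours and in fibroblasts in both WT tumours. Xist-low cells then had the highest share in KO tumour 1, from only 32 cells of 2000 to 5000 UMIs and 31 of 5000 to 10000.

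**Figure D3:**
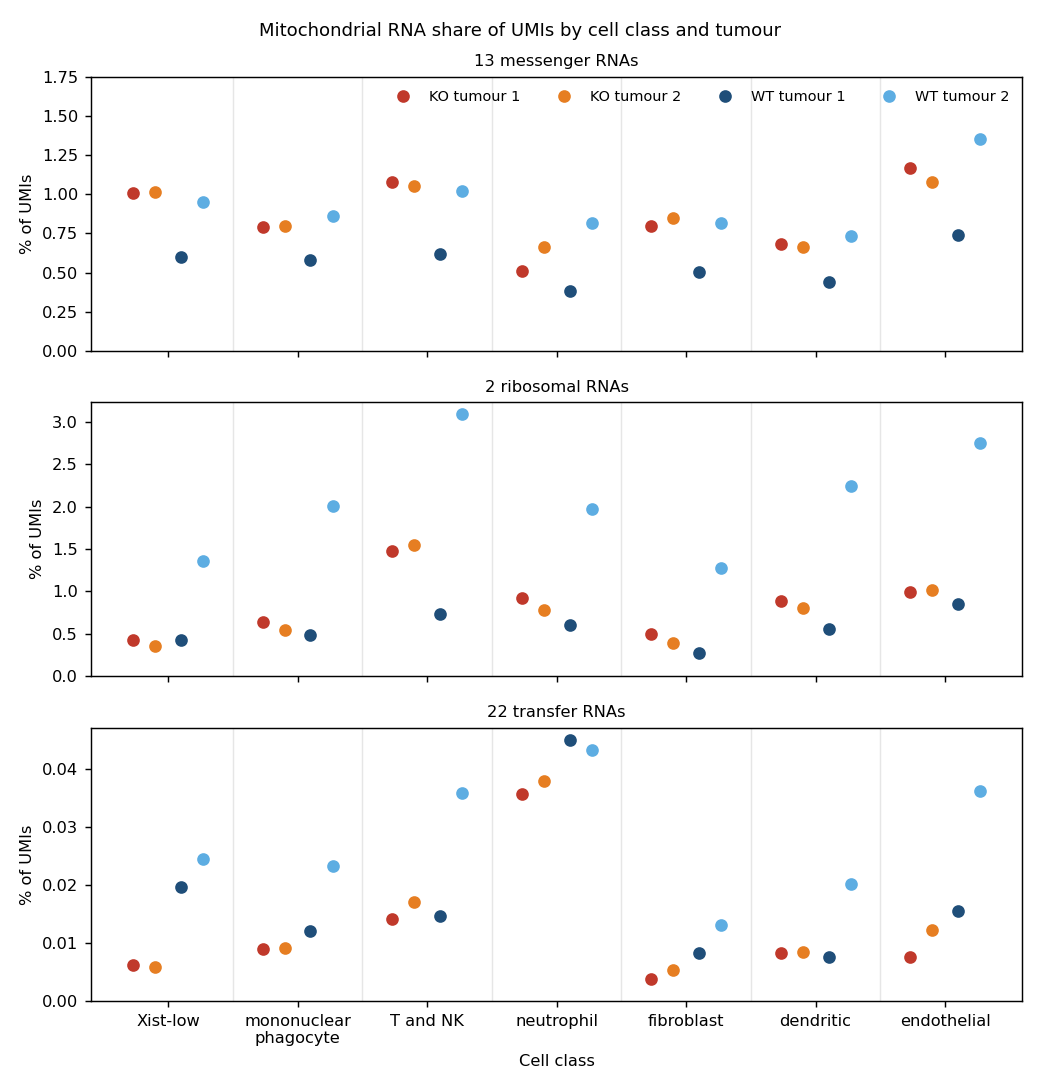
Share of all UMIs (percent) from the 13 messenger RNAs, the 2 ribosomal RNAs and the 22 transfer RNAs in 7 cell classes, 1 point per tumour, KO left of WT. WT tumour 1 has the lowest messenger RNA share in each class (0.599% in Xist-low cells). WT tumour 2 has the highest ribosomal RNA share in each class (1.35% in Xist-low cells). Both KO tumours lie below both WT tumours for transfer RNAs in Xist-low cells, phagocytes, neutrophils, fibroblasts and endothelial cells. They do not in T and NK cells or dendritic cells.

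Transfer RNAs were the only mitochondrial genes that passed the test between genotypes in Xist-low cells. The labels call the samples separate tumours and do not say what a tumour number shares, so p-values measure the spread between these tumours. The test was edgeR's quasi-likelihood test on UMIs summed per tumour and class, with Benjamini-Hochberg adjustment over the 17927 genes tested and a threshold of 0.05. Of the 22 transfer RNAs 9 fell in KO and 0 rose, with 4.28% of all genes falling and 4.39% rising in the same test. None of the 13 messenger RNAs and neither ribosomal RNA passed it in either direction (3 of these 15 had an unadjusted p under 0.05; DESeq2 called mt-Atp8 as lower). The median log2 fold change was -1.44 over the transfer RNAs, 0.18 over the messenger RNAs and -0.01 over all genes tested. Both KO tumours lay below both WT tumours for 17 of 22 transfer RNAs, and this was so for 30.5% of all genes.

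mt-Ts2, a serine transfer RNA, had 3.34 and 3.76 CPM in KO Xist-low cells, against 21.4 and 29.1 CPM in WT Xist-low cells. The groups did not overlap, and the log2 fold change was -2.83 ± 0.19 SE (edgeR adjusted p = 0.00548). mt-Tc, the cysteine transfer RNA and the most abundant of the 22 in WT cells, had 7.86 and 12.3 CPM in KO cells, against 66.5 and 64.6 CPM in WT cells. Here too the groups stood apart, with a log2 fold change of -2.70 ± 0.21 SE (edgeR adjusted p = 0.00742).

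mt-Tn, for asparagine, had 2.76 and 2.39 CPM in KO cells, against 15.3 and 14.8 CPM in WT cells (log2 fold change -2.55 ± 0.15 SE). mt-Tm, for methionine, which also starts mitochondrial proteins, had 4.43 and 3.56 CPM in KO cells, against 17.1 and 25.9 CPM in WT cells (log2 fold change -2.43 ± 0.23 SE). mt-Ta, for alanine, had 7.27 and 5.68 CPM in KO cells, against 29.1 and 36.6 CPM in WT cells (log2 fold change -2.35 ± 0.18 SE). For all 3 the groups stood well apart, and the edgeR adjusted p values were 0.00548, 0.011 and 0.00734. mt-Tv, for valine, had 2.39 and 2.78 CPM in KO cells, against 6.63 and 14.3 CPM in WT cells, and its WT tumours differed most among the 9. mt-Td (aspartate), mt-Te (glutamate) and mt-Tq (glutamine) had log2 fold changes of -1.77, -1.31 and -1.24, with edgeR adjusted p values of 0.0258, 0.0438 and 0.015.

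The other 13 transfer RNAs did not pass. mt-Tt, for threonine, had 4.06 and 5.94 CPM in KO cells, against 3.08 and 3.27 CPM in WT cells. mt-Ts1, the other serine transfer RNA, had 3.85 and 2.15 CPM in KO cells, against 1.53 and 1.81 CPM in WT cells. For both, the KO tumours lay above the WT tumours, with log2 fold changes of 0.66 and 0.84 that missed the threshold (edgeR adjusted p = 0.119 and 0.141). mt-Tw, for tryptophan, had a log2 fold change of 0.27, and the remaining 10 had negative values. The mean WT level ranged from 5.30 to 65.6 CPM over the 9 that passed, with a median of 17.8, and from 0.196 to 5.70 CPM over the 13 others, with a median of 1.58, so the others were also the scarcer ones.

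The sequences of 4 transfer RNAs whose KO changes differed between cell classes and of mt-Tt are given 5′ to 3′ on the coding strand, with the longest run of A in capitals, or the first of them where several are equally long. They lie at chrM:1025-1093 (mt-Tv, plus strand), chrM:3845-3913 (mt-Tm, plus), chrM:5192-5257 (mt-Tc, minus), chrM:11613-11671 (mt-Ts2, plus) and chrM:15289-15355 (mt-Tt, plus).
mt-Tv: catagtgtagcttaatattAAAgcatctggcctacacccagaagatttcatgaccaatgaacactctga
mt-Tm: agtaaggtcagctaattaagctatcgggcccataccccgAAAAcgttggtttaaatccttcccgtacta
mt-Tc: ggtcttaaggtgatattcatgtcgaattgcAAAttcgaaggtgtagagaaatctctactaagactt
mt-Ts2: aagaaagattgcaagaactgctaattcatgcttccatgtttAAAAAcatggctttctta
mt-Tt: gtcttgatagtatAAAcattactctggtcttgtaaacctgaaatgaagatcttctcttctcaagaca
The longest run of A had 2 to 5 bases (median 3) in the 9 transfer RNAs that fell and 2 to 8 bases (median 4) in the 13 others, and A made up a median of 31.8% and 36.9% of their bases. Of the 9 that fell, 5 are read from the minus strand, against 3 of the 13 others. Transcripts of 59 to 75 bases are shorter than a sequencing read of the usual length, and whether reads over them came from whole transfer RNAs or from uncut longer RNA was not tested.

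**Figure D4:**
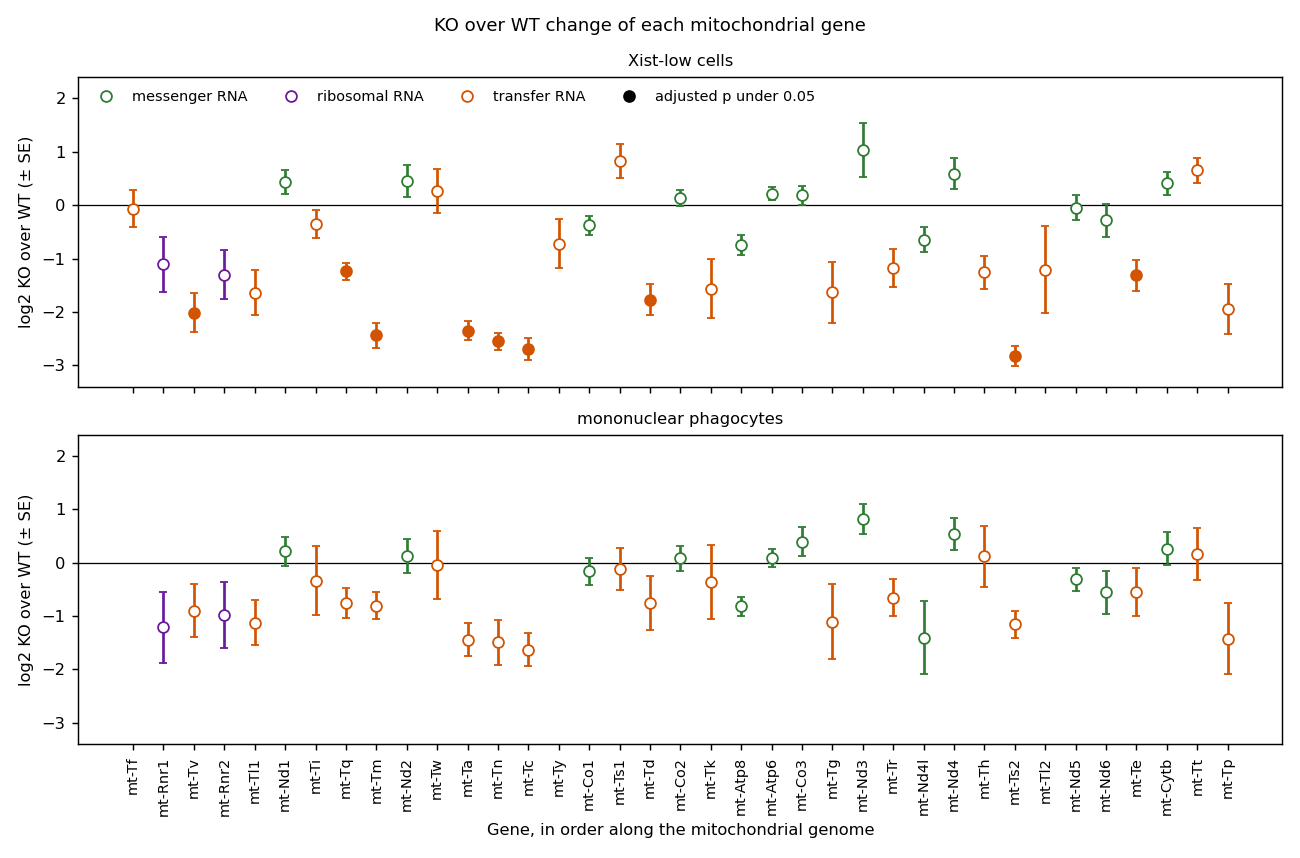
log2 KO over WT (± SE, edgeR) of each mitochondrial gene in order along the genome, in Xist-low cells and in mononuclear phagocytes; filled points have an adjusted p under 0.05. In Xist-low cells the 9 filled points are all transfer RNAs, from -1.24 to -2.83, and they lie between messenger RNAs whose values spread around 0.

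The levels of the 9 transfer RNAs are given next by cluster and depth range, as a description only, since the 9 were chosen by the test on these same cells and tumours. Xist-low cells of KO tumours were deeper, with a median of 40308 and 32598 UMIs per cell, against 12197 and 12355.5 in WT tumours, and most of them (1083 and 2037 cells) were in cluster 3, which held 523 and 760 WT cells. Within cluster 3 the 9 transfer RNAs together had 4.09 and 4.16 UMIs per 100000 in KO tumours, against 10.1 and 11.1 in WT tumours. Over cells of 20000 to 40000 UMIs they had 4.57 and 4.19 in KO tumours, against 11.1 and 12.1 in WT tumours. Both KO tumours lay below both WT tumours in 6 of 6 clusters and 5 of 5 depth ranges, an outcome to which that choice contributes. Several of these groups held few KO cells. KO tumours 1 and 2 had 22 and 26 cells in cluster 17 and 25 and 54 in cluster 2. They had 32 and 26 cells of 2000 to 5000 UMIs. For the sum of the other 13 transfer RNAs, both KO tumours lay below both WT tumours in 1 of 6 clusters and 0 of 5 depth ranges. They lay above them in 0 clusters and 3 depth ranges. The choice of the 9 contributes to this contrast too. The sum of the 13 includes mt-Tt, mt-Ts1 and mt-Tw, which had positive values. Taken singly over the class, 17 of all 22 transfer RNAs were lower in both KO tumours than in both WT tumours. The level of the 9 fell with depth in every tumour, for example in WT tumour 1, where it was 68.6 UMIs per 100000 at 2000 to 5000 UMIs per cell and 10.41 at over 40000.

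Counted per cell, the RNA kinds behaved differently. A KO Xist-low cell held a mean of 2.58 and 2.01 transfer RNA UMIs, against 2.73 and 3.53 in WT tumours. It held 417 and 342 messenger RNA UMIs, against 82.9 and 137 in WT tumours. Over the whole class, transfer RNA UMIs per cell were lower and messenger RNA UMIs per cell higher in both KO tumours than in both WT tumours. Within clusters this was so for transfer RNA in 3 of 6 and for messenger RNA in 5 of 6. In cluster 3 the transfer RNA values overlapped (2.62 and 2.09 in KO tumours, 1.98 and 2.98 in WT tumours). Within depth ranges it was so for transfer RNA in 5 of 5 and for messenger RNA in 4 of 5. Phagocytes, which hold fewer UMIs, had 0.744 and 0.679 transfer RNA UMIs per cell in KO tumours, against 0.647 and 0.920 in WT tumours.

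**Figure D5:**
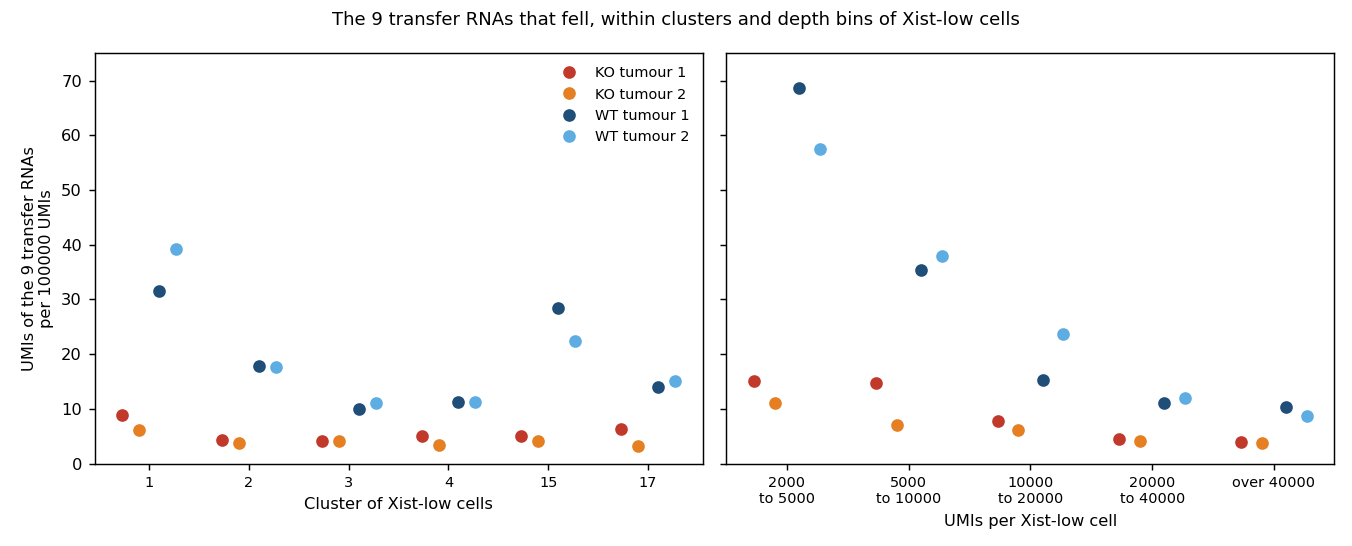
UMIs of the 9 transfer RNAs chosen by the test on the same cells, per 100000 UMIs, in the clusters (left) and depth ranges (right) of Xist-low cells, 1 point per tumour and group of at least 20 cells. Both KO tumours lie below both WT tumours in all 6 clusters and all 5 depth ranges. In cluster 3 the values are 4.09 and 4.16 in KO against 10.1 and 11.1 in WT. The sum of the other 13, not plotted, did so in 1 cluster and 0 depth ranges, a contrast to which the choice contributes.

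The calls depended on single WT libraries for other genes. Without WT tumour 1, 19 mitochondrial genes fell in KO Xist-low cells, among them both ribosomal RNAs. Without WT tumour 2, 11 fell and 5 rose (mt-Nd1, mt-Nd2, mt-Nd3, mt-Nd4 and mt-Tw). All 9 transfer RNAs stayed among the falling genes in both cases, and mt-Te alone lost its call without KO tumour 2 (edgeR adjusted p = 0.095). In cells of 10000 to 30000 UMIs, 6 of the 9 passed, and mt-Tv, mt-Td and mt-Te kept their direction with adjusted p values of 0.099, 0.112 and 0.122. Levels of some markers of other cells moved with genotype in the same class, beside 4.39% of all genes rising and 4.28% falling. Of 11 T and NK markers 4 rose in KO, with summed levels of 0.339 and 0.245 UMIs per 10000 in KO tumours and 0.097 and 0.031 in WT tumours, and none was at 0. Of 10 neutrophil markers 3 rose (0.397 and 0.197 in KO tumours, 0.130 and 0.129 in WT tumours, none at 0). Of 13 phagocyte markers 2 rose (3.84 and 3.08 in KO tumours, 2.65 and 1.10 in WT tumours, none at 0), and of 10 fibroblast markers 2 fell (12.9 and 8.01 in KO tumours, 17.5 and 22.8 in WT tumours, none at 0). Of 5 tested dendritic markers 1 rose, and of 5 tested mural markers 1 fell. No endothelial, erythroid, B, mast or basophil, or gamma-delta T marker passed (8, 4, 3, 2 and 2 tested). The part of RNA from other cells in the transfer RNA levels was not tested.

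In mononuclear phagocytes no gene passed the edgeR test (0 of 13341, 0% in either direction; DESeq2 called 3 mitochondrial genes, and 9 of 34 tested had an unadjusted p under 0.05). Both KO tumours lay below both WT tumours for 8 of 19 transfer RNAs tested (23.8% of all genes) and above them for 3 of 13 messenger RNAs (25.8% of all genes). The median log2 fold change was -0.76 over the 19 transfer RNAs tested, 0.09 over the 13 messenger RNAs and -0.01 over all genes. These 19 of 22 transfer RNAs passed a low-count filter that the 2 WT tumours alone can satisfy, which favours negative values among scarce genes. mt-Tc had 8.32 and 14.3 CPM in KO phagocytes, against 28.9 and 40.7 CPM in WT phagocytes. mt-Ts2 had 5.60 and 7.47 CPM in KO phagocytes, against 13.3 and 15.7 CPM in WT phagocytes. For both, the KO tumours lay below the WT tumours, with log2 fold changes of -1.63 and -1.15 and edgeR adjusted p values of 0.0912 and 0.106.

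Whether the change was larger in Xist-low cells than in phagocytes was tested directly, with the tumour as a block. Cells were not matched by cluster or depth in this test, and Xist-low cells differed in both between genotypes. Over all phagocytes the 9 transfer RNAs had 5.19 and 5.66 UMIs per 100000 in KO tumours, against 9.71 and 15.9 in WT tumours. Xist-low cells of cluster 3, which held most KO cells, had 4.09 and 4.16 in KO tumours, against 10.1 and 11.1 in WT tumours. Whether the difference holds at like cluster or depth was not tested. The change was more negative in Xist-low cells for 4 of 36 mitochondrial genes tested, with 1.72% of all 17549 genes called in that direction, and more positive for 0 (1.97% of all genes). These were mt-Ts2 (difference of log2 changes -1.66 ± 0.24 SE, edgeR adjusted p = 0.0125), mt-Tm (-1.60 ± 0.23 SE, adjusted p = 0.0125), mt-Tv (-1.18 ± 0.25 SE, adjusted p = 0.0379) and mt-Tc (-1.09 ± 0.21 SE, adjusted p = 0.0297). Leaving out 1 tumour gave 2 such genes without KO tumour 1, 2 without KO tumour 2, 0 without WT tumour 1 and 8 without WT tumour 2, and a fit with no tumour block called 0. In T and NK cells and fibroblasts no mitochondrial gene passed, and these 2 classes had 168 and 0 called genes in all. Of the 22 transfer RNAs 18 and 7 were tested there, and 17 and 7 of these had negative values. The low-count filter can be passed through the 2 WT tumours alone, which favours negative values among scarce genes. This limit holds for the transfer RNA counts and medians of both classes. Unadjusted p was under 0.05 for 5 mitochondrial genes in T and NK cells and 6 in fibroblasts, and DESeq2 called 1 and 0. Of all genes 1.04% rose and 0.255% fell in T and NK cells. Both KO tumours lay below both WT tumours for 3 of 18 transfer RNAs in T and NK cells (23.5% of all genes) and for 6 of 7 in fibroblasts (23.3%), and above them for 2 of 12 messenger RNAs in T and NK cells (26.8%) and 5 of 12 in fibroblasts (23.8%). The median transfer RNA log2 fold change was -0.67 in T and NK cells and -1.40 in fibroblasts, beside -0.01 and 0.02 over all genes.

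mt-Atp8, an ATP synthase subunit whose gene overlaps mt-Atp6, was lower in both KO tumours than in both WT tumours in all 5 classes tested. In Xist-low cells it had 90.1 and 84.8 CPM in KO tumours, against 117 and 175 CPM in WT tumours (log2 fold change -0.74 ± 0.19 SE, edgeR adjusted p = 0.0595). In neutrophils it fell, to 74.8 and 74.2 CPM in KO tumours, against 114 and 179 CPM in WT tumours (-1.10 ± 0.29 SE, edgeR adjusted p = 0.0181), in a class where 2.43% of all genes fell and 7.29% rose. It was the 1 mitochondrial gene called among 21 tested there, and of 8 transfer RNAs both KO tumours lay below both WT tumours for 2 (23.5% of all genes) and above them for 1 (29.2%). In phagocytes, T and NK cells and fibroblasts its log2 fold changes were -0.82, -0.73 and -0.53, with edgeR adjusted p values of 0.11, 0.109 and 0.462. The neutrophil call rested on 54 cells in WT tumour 1 and was lost with DESeq2 (adjusted p = 0.0967), without KO tumour 1 (0.0654) and without WT tumour 2 (0.598), when high doublet scores were kept (0.0716) and at the finer clustering (0.122).

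The other messenger RNAs of Xist-low cells showed the split between the WT tumours. mt-Cytb had 2823 and 3269 CPM in KO tumours, against 1874 and 2711 CPM in WT tumours. mt-Nd4, a complex I subunit, had 1521 and 1553 CPM in KO tumours, against 699 and 1338 CPM in WT tumours. Both KO tumours lay above both WT tumours for these and for mt-Nd1, mt-Nd2 and mt-Atp6, 5 of 13 messenger RNAs, with 29.9% of all genes doing so. mt-Co1, the catalytic subunit of complex IV whose last 300 bases are wholly copied in Gm29216, went the other way, with 684 and 855 CPM in KO tumours, against 903 and 1094 CPM in WT tumours (log2 fold change -0.38 ± 0.18 SE, edgeR adjusted p = 0.211). mt-Rnr2 had 2601 and 2491 CPM in KO tumours, against 3153 and 9361 CPM in WT tumours (-1.30 ± 0.46 SE, edgeR adjusted p = 0.119), with WT tumour 2 far above the other 3 tumours.

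Counts of called nuclear genes that act on mitochondria are given for 6 lists, beside 4.39% of all genes rising and 4.28% falling in the same test of Xist-low cells. In Xist-low cells 0 of 18 genes of mitochondrial DNA maintenance and transcription passed, with a median log2 fold change of -0.16. Of 28 genes of mitochondrial RNA processing and stability 1 rose and 0 fell: Tbrg4, a FASTK-family protein that acts on mitochondrial RNA, had 22.8 and 22.1 CPM in KO cells, against 16.8 and 14.9 CPM in WT cells (log2 fold change 0.50 ± 0.12 SE, edgeR adjusted p = 0.0475). Of 9 tested regulators of mitochondrial biogenesis Gabpa, a transcription factor, fell (-0.46 ± 0.11 SE, edgeR adjusted p = 0.0499), near the threshold like Tbrg4. Of 80 nuclear respiratory chain and ATP synthase subunits 1 fell (Cox7a2l, a factor of respiratory supercomplexes, -0.60 ± 0.13 SE), and of 78 mitochondrial ribosomal proteins 1 rose (Mrpl47, 0.54 ± 0.12 SE).

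Of 20 tested genes of mitophagy and quality control 3 fell and 0 rose, with 4.28% of all genes falling and 4.39% rising. Pink1, the kinase that marks damaged mitochondria, had 9.72 and 11.7 CPM in KO cells, against 25.6 and 29.4 CPM in WT cells (log2 fold change -1.36 ± 0.14 SE, edgeR adjusted p = 0.011). Bnip3, a mitophagy receptor of the outer membrane, had 59.96 and 36.8 CPM in KO cells, against 124 and 107 CPM in WT cells (-1.26 ± 0.23 SE, adjusted p = 0.0293). Its relative Bnip3l had 68.3 and 74.1 CPM in KO cells, against 133 and 123 CPM in WT cells (-0.85 ± 0.11 SE, adjusted p = 0.0157). The groups did not overlap for any of the 3. The median of the list was 0.03, beside -0.01 over all genes. The 7 calls over these lists were 4 without KO tumour 1, 3 without KO tumour 2, 16 without WT tumour 1 and 11 without WT tumour 2, and Pink1, Bnip3 and Bnip3l passed in all 4 cases. In phagocytes 0 genes of these lists passed.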

How the data were processed

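UMI counts per gene and barcode were deposited by the authors as filtered matrices. The labels' protocols name Cell Ranger 5.0.1 and the mm10 genome, while the file headers name Cell Ranger 6.1.2; Seurat 5.1.0 is listed in the submitters' processing notes with no role given. Treatment of reads with several matches is not given in the sources used here. Barcodes with at least 300 genes and 500 UMIs were kept, and the highest doublet scores were removed at 0.8% per 1000 barcodes; no maximum was set on mt- UMIs. Cells were clustered with scanpy 1.11.5 without mt- genes (2000 variable genes, 30 components, 15 neighbours, Leiden resolution 1.0) and named from markers; clusters with at most 1 UMI per 10000 of Xist and of Ptprc were called Xist-low, and 1 such cluster of few UMIs was kept apart by a rule set after the data were seen. UMIs were added up by tumour and class, and these sums were tested with edgeR 4.0.16 (R 4.3.3; TMM, filterByExpr, quasi-likelihood test, Benjamini-Hochberg, threshold 0.05) in the 5 classes with at least 50 cells in every tumour. The test was checked on simulated counts, and DESeq2 1.42.0 was an alternative, besides other scalings, filters, clusterings and left-out tumours. Copies were found by aligning GENCODE M21 transcripts, and identical windows were 90 bases long. Named were all mt- genes, their nuclear copies, Hnrnpa2b1, and the called genes of 6 nuclear lists (at most 3 per direction by size of change). The members and lists were chosen with earlier results of these data known.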

Additional observations from a re-analysis of the deposited data

Results flagged for a closer look

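For 4 transfer RNAs the KO over WT change differed between Xist-low cells and mononuclear phagocytes in a direct test of the difference (edgeR quasi-likelihood test with the tumour as a block, n = 2 tumours per group). The log2 change in Xist-low cells minus that in phagocytes was -1.66 for mt-Ts2, -1.60 for mt-Tm, -1.18 for mt-Tv and -1.09 for mt-Tc. The change was negative in both classes for each of the 4, being -2.83 in Xist-low cells and -1.15 in phagocytes for mt-Ts2. The cells were not matched by cluster or depth, in which Xist-low cells differed between genotypes, and whether the difference holds at like cluster or depth was not tested.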

How the results depend on the processing

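None of the mt- genes and nuclear genes named here that passed the reported test changed direction under the alternatives run for it. Direction was not compared for the other genes that passed. The log2 ratio of the messenger RNA share changed sign when a WT tumour was left out in phagocytes and neutrophils. The 9 transfer RNAs kept their direction in Xist-low cells in all 144 combinations of gene and alternative and lost the call in 6 of them, and the causes of these changes were not tested. Instead of 9 mitochondrial genes, DESeq2 called 15 in Xist-low cells and the test with no low-count filter called 22 (4 rose, 18 fell). Calls over all genes moved too, from 787 rising and 768 falling of 17927 as reported. DESeq2 called 1433 and 1291 of 15146, and the test with no low-count filter 1858 and 2046 of 30815. In phagocytes, with 0 called, DESeq2 called 3, no low-count filter 10 and keeping cells of high doublet score 3. Over all phagocyte genes these called 313 rising and 174 falling, 865 and 646, and 359 and 439, against 0 reported. In T and NK cells, with 0, the same alternatives called 1, 7 and 3. Over all genes there they called 181 rising and 71 falling, 804 and 307, and 328 and 217, against 135 and 33 reported. In neutrophils, with 1, DESeq2 and Leiden resolution 2.0 called 0, and in fibroblasts, with 0, no low-count filter called 3. Over all neutrophil genes DESeq2 called 243 rising and 79 falling and Leiden resolution 2.0 called 0, against 597 and 199 reported. Over all fibroblast genes no low-count filter called 569 and 310, against 0 reported. Leaving out 1 tumour gave 8 to 19 calls in Xist-low cells, 1 to 3 in phagocytes, 0 to 9 in T and NK cells and 0 to 1 in neutrophils; a tumour left alone in its group was assumed to vary like the other group. The same gave log2 ratios of the messenger RNA share of 0.094 to 0.76 in Xist-low cells, -0.12 to 0.45 in phagocytes, 0.061 to 0.78 in T and NK cells, -0.47 to 0.63 in neutrophils and 0.0044 to 0.71 in fibroblasts, and the fibroblast ratio was 0.73 in cells of 2000 to 10000 UMIs. For the difference between Xist-low cells and phagocytes, 0 mitochondrial genes were called with no tumour block and 0 to 9 without 1 tumour. Of the nuclear lists in Xist-low cells, library totals with no TMM called 14 and DESeq2 29, against 7 reported, and 3 to 16 were called without 1 tumour; in phagocytes 0 to 6 were. Over all genes of Xist-low cells, library totals with no TMM called 904 as rising and 516 as falling. In cells of 2000 to 10000 UMIs the mean messenger RNA share was 1.63% in Xist-low cells (0.893% over all), 0.859% in neutrophils (0.592%) and 0.919% in fibroblasts (0.741%). The mean mt-Nd3 share there was 3.45% in Xist-low cells (1.86%) and 84.7% in T and NK cells (77.4%). The Xist-low values in that range rest on few KO cells (32 and 26 of 2000 to 5000 UMIs, 31 and 30 of 5000 to 10000). At Leiden resolution 2.0 the neutrophil mt-Nd3 share was 52.5% (27.1%). Same-numbered tumours did not deviate together across genes (correlation -0.113 in Xist-low cells, -0.315 in phagocytes, 0.030 in T and NK cells, -0.019 in neutrophils and -0.588 in fibroblasts). With 2 tumours per group this cannot tell whether the numbers pair the tumours. With a replicate block 15 mitochondrial genes were called in Xist-low cells and 3 in T and NK cells. Over all genes that block called 1078 as rising and 849 as falling in Xist-low cells, and 433 and 218 in T and NK cells. A crossed pairing, chosen after the data were seen, called 17 in Xist-low cells, 8 in phagocytes, 3 in T and NK cells and 2 in fibroblasts. Over all genes it called 2224 rising and 2217 falling in Xist-low cells and 940 and 740 in phagocytes. It called 403 and 185 in T and NK cells and 691 and 413 in fibroblasts. Transfer RNAs are counted at a few UMIs per cell, which limits what can be said of the scarcer 13.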

Other observations

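A cluster of Xist-low cells with few UMIs, kept out of the Xist-low class, had the highest mitochondrial shares of the classes in KO tumour 1. Its 188 and 239 KO cells gave 8.22% and 3.50% of their UMIs to the 2 ribosomal RNAs, against 1.13% and 3.38% in 711 and 814 WT cells. Messenger RNAs took 3.83% and 1.74% in KO tumours, against 0.821% and 1.51% in WT tumours. The mt-Nd3 share of mt-Nd3 and Gm28438 UMIs in these cells was 4.83% and 5.096% in KO tumours, against 2.32% and 3.21% in WT tumours, near the Xist-low values and far below those of phagocytes.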
